A study of Mus musculus with 4 samples.

Results

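The genes described here are 10 genes of innate immune sensing, the Toll-like receptor genes TLR2, TLR3, TLR4, TLR7 and TLR9, their adaptor gene MYD88, and the inflammasome genes NLRP3, PYCARD, CASP1 and CASP4, in the capitals of the deposited table. They were chosen by symbol, and below they carry their mouse names, from Tlr2 to Casp4. All 10 had a row at 7 days post injury (dpi), among 14123 genes listed once there. At 21 dpi, 7 of the 10 were among the 11470 genes listed once, and Tlr3, Tlr4 and Nlrp3 had no row and were not analysed here at that time. The tissue was the lesion site of male mice, a cord segment of about 4 mm, after an incomplete contusion of 50 kdyne at thoracic vertebra 9 at 3 to 5 months of age. Every mouse carried a human ApoE gene in place of its own, either ApoE3 or ApoE4 (targeted replacement), in every cell that normally expresses the gene. The 4 groups were ApoE3 at 7 dpi, ApoE4 at 7 dpi, ApoE3 at 21 dpi and ApoE4 at 21 dpi. Uninjured or sham-operated cord was not analysed here, so no level can be set against its level without injury.

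Toll-like receptors are membrane proteins that recognise microbial molecules and molecules released by damaged cells. Those at the cell surface bind mainly lipids and lipoproteins, and those in endosomes bind nucleic acids, and nearly all of them signal through the adaptor Myd88 to NF-kappaB and to cytokine genes. An inflammasome is a cytosolic complex in which a sensor such as Nlrp3 gathers the adaptor Pycard, which activates Casp1, and active Casp1 matures interleukin-1 beta and interleukin-18 and opens membrane pores. In injured spinal cord, microglia and macrophages that enter from the blood are known as major sources of this machinery.

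The values are FPKM, fragments scaled to transcript length and to the size of the library, with 1 value per gene and group for 3 mice per genotype and time point. No value of an individual mouse was used, so no difference between groups has a replicate check and no test was run. All libraries were brought to an equal number of reads by the authors, but 1 replicate, in a group their methods do not name, aligned at a lower rate than the rest, and the number of fragments per gene was not analysed here. A ratio is the log2 of FPKM plus 1 in ApoE3 over FPKM plus 1 in ApoE4, so a positive value means a higher level in ApoE3, and pairs of values give ApoE3 before ApoE4. A gene was counted as higher or lower when that ratio reached a fold of at least 1.3 in either direction, which is 0.38 on the log2 scale. The deposited table names its comparison ApoE3 versus ApoE4, while the numbering of its sample columns puts ApoE4 in the first place. The name of the comparison was followed, which is how a supplementary table of the study also orders the ratio. The authors also report that most genes differing at the later time were higher in ApoE4. Under the name followed here, 58.9% of listed genes at 21 dpi were at least 1.3-fold lower in ApoE3 and 2.01% were higher. Both rest on the same libraries, so this is no separate check of the labels. Under the other reading every direction between genotypes given here would be the opposite. The time course printed for ApoE3 would then be that of ApoE4.

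The groups differed in more than these genes. Over all genes whose FPKM averaged at least 1 in a comparison, the median ratio was 0.0018 at 7 dpi and -0.42 at 21 dpi. At the later time 93.8% of all listed genes lay below 0. Among the 10876 genes listed at both times, the median level was 30.0 FPKM in ApoE3 against 29.8 in ApoE4 at 7 dpi, and 29.3 and 40.2 at 21 dpi. Ratios at 21 dpi are therefore also given relative to the median of all genes. Cord markers were high in every group, with Gfap of astrocytes between 8201 and 15313 FPKM, Snap25 of neurons between 2545 and 7812, and Mbp of oligodendrocytes between 120571 and 278678. The groups also differed in markers of tissues outside the cord. At 21 dpi the sum over 7 of 8 skeletal muscle markers was 33.6 FPKM in ApoE3 against 713 in ApoE4, led by Tnnt3, and Myh4 was at 0 in ApoE3. At 7 dpi the sum over 6 of 8 ran the other way, with 65.5 and 42.8 FPKM. Of the 6, 2 were higher and 1 lower in ApoE3, beside 3.78% and 4.76% of all listed genes. At 21 dpi the sum over 6 of 8 liver markers was 10.3 and 110 FPKM, led by Apoa2, and no liver marker was listed at 7 dpi. At 21 dpi the sum over 6 of 7 Schwann cell markers was 319.7 FPKM in ApoE3 against 205 in ApoE4. Of the 6, 4 were higher in ApoE3, beside 2.01% of all listed genes. The most abundant of them was Ncmap in ApoE3, with 121.6 FPKM against 35.7, and Sox10 in ApoE4, with 77.9 against 91.9 and a ratio of -0.23. At 7 dpi 4 of the 7 were listed, with sums of 139 and 163 FPKM, and 1 was higher and 1 lower in ApoE3. The part of these tissues in the values given here was not tested.

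At the cell surface, Tlr2, which pairs with Tlr1 or Tlr6 to bind bacterial lipopeptides, had 47.3 FPKM in ApoE3 against 52.1 in ApoE4 at 7 dpi, and 17.4 and 32.4 at 21 dpi. Tlr4, the receptor for lipopolysaccharide, had 3.25 FPKM in ApoE3 against 4.29 in ApoE4 at 7 dpi. The transcript of Tlr2 thus lay more than 10 times above that of Tlr4 in each genotype at 7 dpi. In endosomes, Tlr7, a receptor for single-stranded RNA, had 153 FPKM in ApoE3 against 140 in ApoE4 at 7 dpi, and 24.4 and 38.6 at 21 dpi. Tlr3, which binds double-stranded RNA and signals through Ticam1 rather than Myd88, had 105 and 79.0 FPKM at 7 dpi. Tlr9, which binds unmethylated CpG DNA, had 4.89 and 4.56 FPKM at 7 dpi and 0.9994 and 1.31 at 21 dpi. Tlr7 and Tlr3 thus stood at the top of the order at 7 dpi, while Tlr9 stood near the bottom, with 13.1% of listed genes below it in ApoE3 and 12.1% in ApoE4.

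The shared adaptor Myd88 had 13.4 FPKM in ApoE3 against 15.3 in ApoE4 at 7 dpi, and 7.06 and 10.8 at 21 dpi. Nlrp3, the sensor that responds to loss of potassium and to extracellular ATP, had 7.80 and 10.9 FPKM at 7 dpi. Both lay between Pycard, above them, and Casp1 and Tlr4, below them, at 7 dpi. Pycard, the adaptor that joins sensor and caspase, was the highest of the inflammasome genes among the 10. It had 36.8 FPKM in ApoE3 against 47.6 in ApoE4 at 7 dpi, and 15.1 and 27.9 at 21 dpi. Casp1 had 3.49 and 3.69 FPKM at 7 dpi, and 0.809 and 2.26 at 21 dpi. Casp4, the mouse caspase that binds lipopolysaccharide inside the cell, had 8.03 and 8.26 FPKM at 7 dpi, and 6.52 and 9.998 at 21 dpi. The adaptor of the inflammasome thus lay well above its caspases in every group.

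At 7 dpi the order from high to low was Tlr7, Tlr3, Tlr2, Pycard and Myd88 in both genotypes. Below these, the order was Casp4, Nlrp3, Tlr9, Casp1 and Tlr4 in ApoE3, and Nlrp3, Casp4, Tlr9, Tlr4 and Casp1 in ApoE4. With 1 value per group, no spread shows which neighbours in this order differ. At 21 dpi Tlr7, Tlr2, Pycard, Myd88 and Casp4 followed each other in both genotypes, and Tlr9 and Casp1 came last. In the GENCODE vM21 annotation, exons of Tlr3 overlap those of the antisense gene Gm45542, those of Pycard overlap Gm45205, and those of Myd88 overlap Acaa1a, each on the opposite strand. The library kit does not mark strand, so the values of these 3 genes may include reads of their partners and are uncertain.

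**Figure D1:**
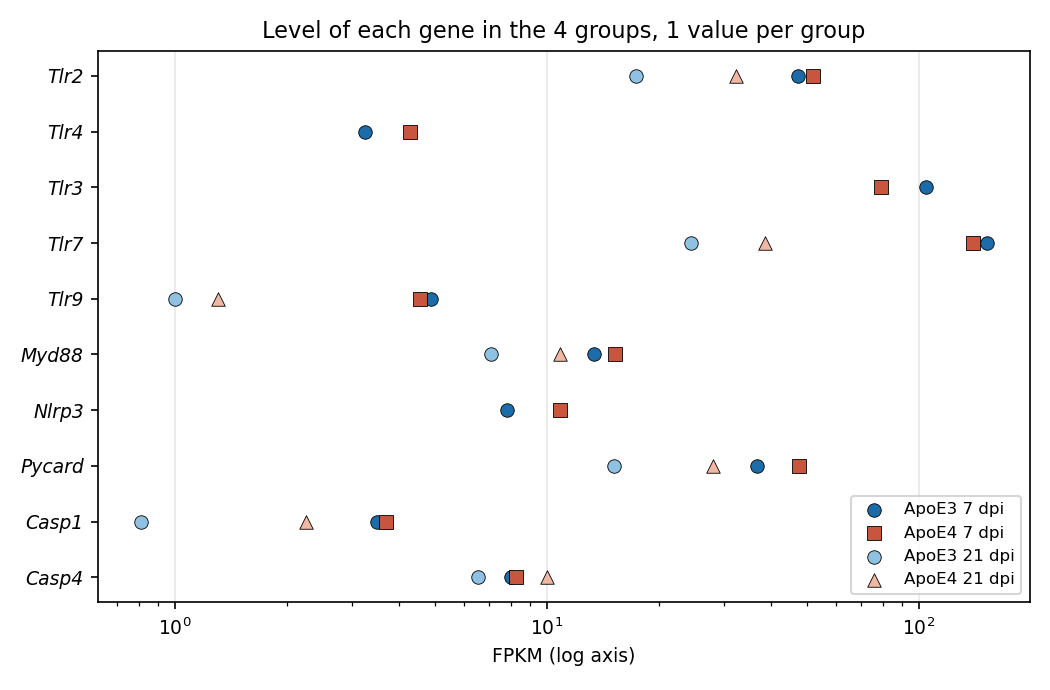
Level of each of the 10 genes in FPKM on a log axis, with 1 point per group (ApoE3 as circles, dark at 7 dpi and light at 21 dpi, and ApoE4 as squares at 7 dpi and triangles at 21 dpi). Points at 21 dpi lie to the left of those at 7 dpi for Tlr2, Tlr7, Tlr9, Myd88, Pycard and Casp1, while those of Casp4 lie between 6.52 and 9.998 FPKM at both times.

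Myd88 and Nlrp3 are shown by their promoters because each had a match to 1 of 2 short motifs of inflammatory gene control in the 250 bases before a start. The RefSeq promoter table of build GRCm38.p6 held 10 such windows for 8 of the 10 genes, and Tlr4 and Tlr7 had no entry. The windows were searched on both strands for the core of the interferon-stimulated response element, GAAANNGAA, and for a core of the NF-kappaB site, GGANNTTCC. Of 32841 promoters, 7.13% held the first and 3.59% held the second. Myd88 held the first, beginning 40 bases before the start. Nlrp3 has 2 starts in the table, and the window of the upstream one held the second motif on the reverse strand, beginning 122 bases before the start. Tlr3 also held the second motif, as GGAGTTTCC, in an annotated exon of other Tlr3 transcripts. The stretches free of annotated exons are printed 5′ to 3′ with the match in capitals, Myd88 from the minus strand at chr9:119340042-119340268 and Nlrp3 from the plus strand at chr11:59541319-59541567.
Myd88: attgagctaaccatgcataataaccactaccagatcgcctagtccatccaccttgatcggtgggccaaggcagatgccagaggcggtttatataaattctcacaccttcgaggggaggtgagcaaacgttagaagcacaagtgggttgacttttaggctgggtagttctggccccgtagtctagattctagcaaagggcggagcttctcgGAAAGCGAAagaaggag
Nlrp3: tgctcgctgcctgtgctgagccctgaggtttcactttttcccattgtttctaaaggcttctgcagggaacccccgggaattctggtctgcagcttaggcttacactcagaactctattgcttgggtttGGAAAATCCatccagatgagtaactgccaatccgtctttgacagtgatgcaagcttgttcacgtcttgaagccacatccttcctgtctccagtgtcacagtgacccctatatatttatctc
Neither core was found in the windows of Tlr2, Tlr9, Pycard, Casp1 and Casp4. A longer NF-kappaB consensus chosen after the windows were seen, GGGRNNYYCC, was held by 7.25% of promoter windows and by 5 of the 10 windows here. These lay before 4 of the 8 genes, which were Tlr2, Tlr3, Nlrp3 and Casp4, and the windows of Casp4 largely overlap each other. A match is a description of the letters and shows no binding.

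The question between genotypes at 7 dpi was whether the levels of these genes differed at the lesion site in the early phase after injury. Of the 10 genes, 1 was higher in ApoE3 and 1 was higher in ApoE4, beside 3.78% of all 14123 listed genes higher in ApoE3 and 4.76% lower. Tlr3 was the gene higher in ApoE3, at 1.32-fold and a log2 ratio of 0.40, and 96.8% of listed genes had a lower ratio. Nlrp3 was the gene higher in ApoE4, at 1.35-fold and a ratio of -0.43, and 3.29% of listed genes had a lower one. These are the values at the edge of the threshold together with Pycard, at 1.29-fold and -0.36, and Tlr4, at 1.25-fold and -0.32, which stayed inside it and were also higher in ApoE4. The ratios of Tlr2, at -0.14, and Myd88, at -0.18, were negative as well. Tlr7 had a ratio of 0.12 and Tlr9 one of 0.085, both well inside the threshold. Casp1, at -0.062, and Casp4, at -0.036, were nearly equal between genotypes. With a pseudocount of 0.1 FPKM, Tlr4 was also past the threshold, at -0.39. No gene of the 10 reached a fold of 1.5. The median over the 10 genes was -0.10, and 7 of 10 were below 0, beside 49.5% of all genes.

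At 21 dpi the same question was asked at the later stage of the lesion. All 7 listed genes had a negative ratio, although Tlr9 lay above the median of all genes. Of the 7, 6 were at least 1.3-fold lower, but so were 58.9% of all 11470 listed genes, and none of the 7 was higher, beside 2.01% of all genes. Tlr2 had a ratio of -0.86, Casp1 one of -0.85 and Pycard one of -0.84, with between 6.41% and 6.75% of listed genes below them. For these 3 genes ApoE4 had about 1.8-fold the level of ApoE3 on the scale of FPKM plus 1. Tlr7 had a ratio of -0.64, Myd88 one of -0.55 and Casp4 one of -0.55, and these 3 lay nearer to the median of all genes. Tlr9 had a ratio of -0.21, with 83.1% of listed genes below it, but with a pseudocount of 0.01 FPKM it was at -0.39 and past the threshold.

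Relative to the median of all genes, 3 genes were at least 1.3-fold lower in ApoE3, beside 8.06% of all listed genes, and 0 were higher, beside 7.46%. These 3 were Tlr2 at -0.43, Casp1 at -0.42 and Pycard at -0.42. Tlr2 is a receptor of the cell surface, and Pycard and Casp1 are consecutive links of the inflammasome. The relative values of Tlr7, at -0.22, Myd88, at -0.13, and Casp4, at -0.13, lay within the threshold, as did that of Tlr9, at 0.22. The median over the 7 genes was -0.64, or -0.22 relative to all genes. Casp1 was at 0.809 FPKM in ApoE3 at this time, so its ratio depends on the pseudocount and was -1.37 with one of 0.1 FPKM.

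**Figure D2:**
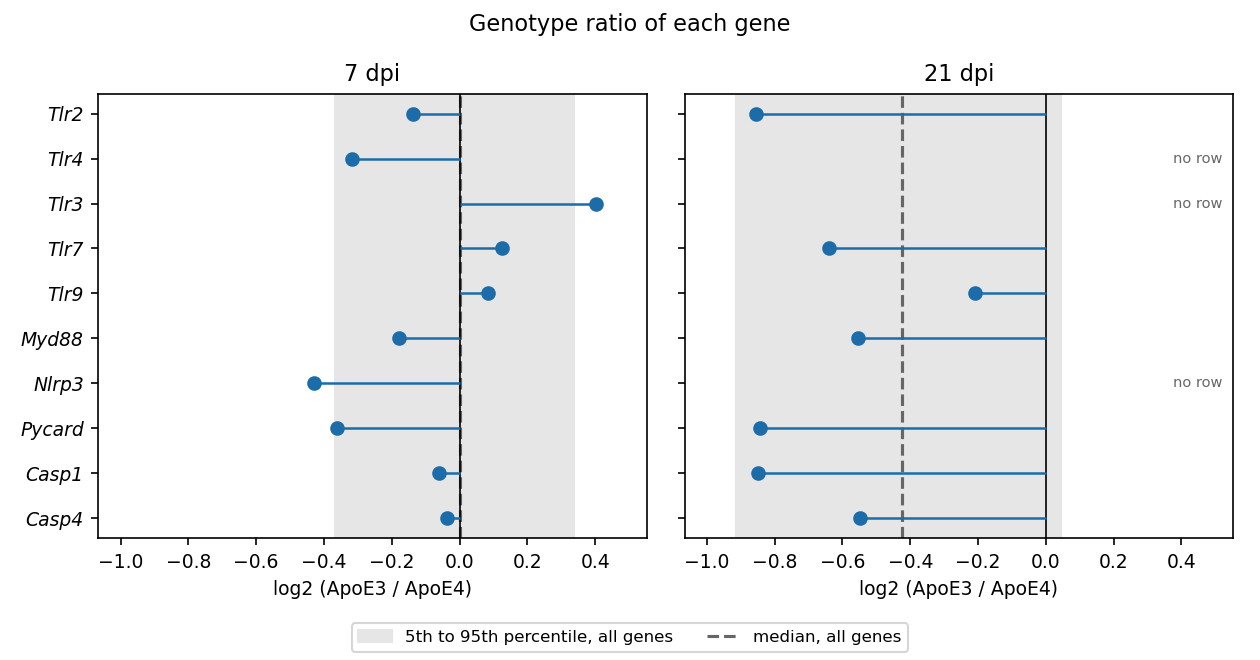
Log2 ratio of ApoE3 to ApoE4 for each gene at 7 dpi (left) and 21 dpi (right), with the median of all genes (dashed) and the range from the 5th to the 95th percentile of all genes (grey). At 7 dpi Tlr3 lies right of the grey range at 0.40 and Nlrp3 left of it at -0.43, and at 21 dpi all 7 listed genes lie left of 0 but within the grey range, with Tlr9 right of the dashed line.

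Levels at 21 dpi were set against those at 7 dpi within each genotype to see whether they changed between the time points. The 2 times were separate comparisons in the authors' processing and may differ in scale, and these ratios share their groups with those between genotypes. The median log2 ratio of 21 to 7 dpi was 0.089 over 10830 genes in ApoE3 and 0.53 over 10862 genes in ApoE4, again where FPKM averaged at least 1. In ApoE3, 6 of the 7 genes were at least 1.3-fold lower at 21 dpi, beside 23.6% of the 10876 genes listed at both times, and 0 were higher, beside 31.3%. In ApoE4, 6 of the 7 were lower, beside 10.9% of all genes, and 0 were higher, beside 59.0%. Relative to the median of all genes in ApoE4, 6 of the 7 were lower, beside 28.6%, and 0 were higher, beside 26.1%.

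Tlr7 fell furthest, by 6.07-fold in ApoE3 with a log2 ratio of -2.60 and by 3.57-fold in ApoE4 with one of -1.84. Of all listed genes, 0.598% had a lower ratio than Tlr7 in ApoE3 and 1.28% in ApoE4. Tlr9 had ratios of -1.56 in ApoE3 and -1.27 in ApoE4. Tlr7 and Tlr9 thus had the lowest time ratios of the 7 in both genotypes. With a pseudocount of 0.1 FPKM the ratios of Tlr9 were -2.18 and -1.72. Tlr2 had ratios of -1.39 and -0.67, and Myd88 had ratios of -0.84 and -0.46, in ApoE3 and ApoE4 respectively. Receptor and adaptor both fell in each genotype. Pycard had ratios of -1.23 and -0.75, and Casp1 had ratios of -1.31 and -0.53, where the former was -1.98 with that pseudocount. Casp4 was the exception, with a ratio of -0.26 in ApoE3 and of 0.25 in ApoE4, neither past the threshold, and the latter was -0.28 relative to the median of all genes. The median over the 7 genes was -1.31 in ApoE3 and -0.67 in ApoE4, or -1.40 and -1.20 relative to all genes. Whether the genotypes differ in this decline was not tested.

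**Figure D3:**
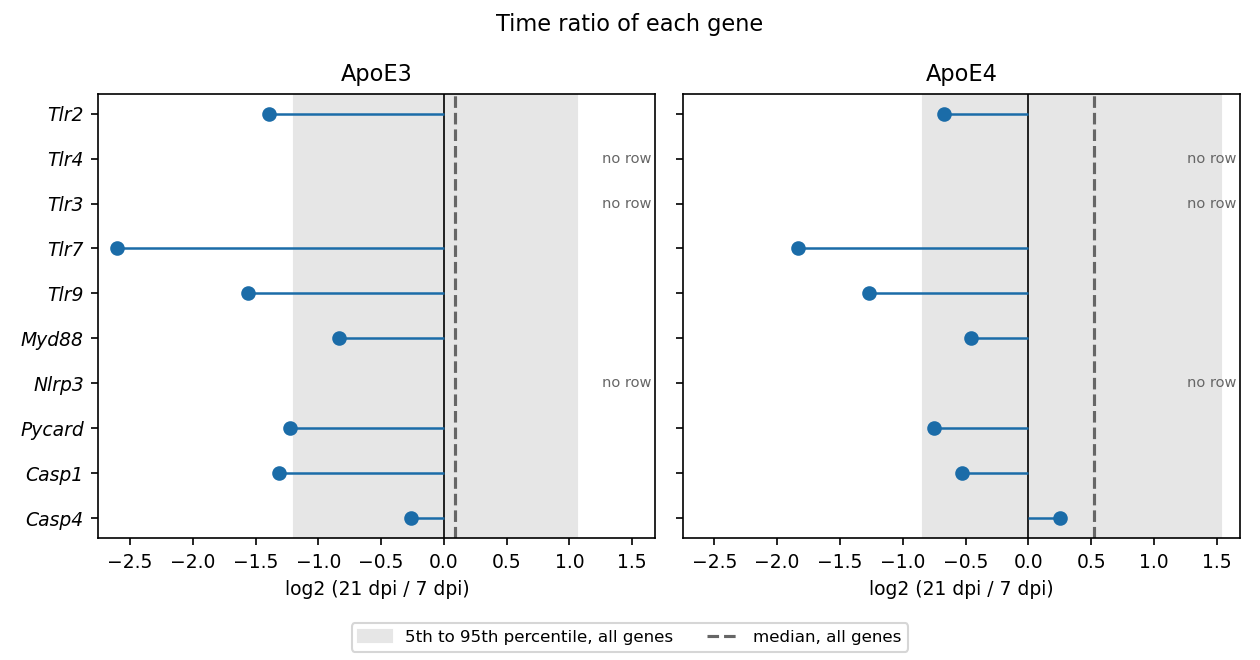
Log2 ratio of 21 dpi to 7 dpi for each gene in ApoE3 (left) and ApoE4 (right), with the median of all genes (dashed) and the range from the 5th to the 95th percentile of all genes (grey). Tlr7, at -2.60 and -1.84, and Tlr9, at -1.56 and -1.27, lie left of the grey range in both genotypes, and Casp4, at -0.26 and 0.25, stays closest to 0. Tlr2, at -1.39, Casp1, at -1.31, and Pycard, at -1.23, lie left of the grey range in ApoE3 but within it in ApoE4.

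Counts in the lists from here on stand beside shares of all listed genes. At 7 dpi 3.78% were higher and 4.76% lower in ApoE3. At 21 dpi 2.01% were higher and 58.9% lower, or 7.46% and 8.06% relative to the median of all genes. From 7 to 21 dpi 23.6% fell in ApoE3 and 10.9% in ApoE4, or 28.6% in ApoE4 relative to that median. Among 7 other Toll-like receptors, 5 were listed at 7 dpi, of which 3 were lower in ApoE3 and 0 were higher. Tlr1, a partner of Tlr2, had 47.9 FPKM in ApoE3 against 66.3 in ApoE4 at 7 dpi, a ratio of -0.46. At 21 dpi Tlr1 had 15.2 and 18.2 FPKM, a ratio of -0.24, which was 0.18 relative to all genes. Tlr6, the alternative partner of Tlr2, had 12.4 and 14.5 FPKM at 7 dpi, and 3.40 and 6.74 at 21 dpi with a ratio of -0.81. The partners of Tlr2 therefore had their more negative ratio at different times, and since they are close paralogs that may share reads, their separate values are uncertain. Tlr13, a receptor for bacterial ribosomal RNA, had 15.8 and 21.2 FPKM at 7 dpi, a ratio of -0.40, and 1.98 and 3.79 FPKM at 21 dpi, a ratio of -0.68. Tlr8 had 30.9 and 35.9 FPKM at 7 dpi, a ratio of -0.21, and no row at 21 dpi. Tlr12, which works with Tlr11 in mice, was low, with 0.835 and 1.45 FPKM at 7 dpi and a ratio of -0.41. At 21 dpi 3 of 4 listed receptors were lower in ApoE3, and 1 of the 4 relative to all genes, which was Tlr6 at -0.39. From 7 to 21 dpi, 3 of 4 fell in each genotype, with Tlr13 at -2.50 in ApoE3 and -2.21 in ApoE4.

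The co-receptors and chaperones deliver ligands to the receptors or carry the receptors to their place. Of 10, all were listed at 7 dpi, with 1 higher and 3 lower in ApoE3. Cd14, which hands lipopolysaccharide to Tlr4, had 20.4 FPKM in ApoE3 against 31.9 in ApoE4 at 7 dpi, and 12.2 and 19.4 at 21 dpi. Its ratio was -0.62 at 7 dpi and -0.63 at 21 dpi, the latter -0.20 relative to all genes. Hsp90b1, a chaperone that Toll-like receptors need to fold, had 199 and 297 FPKM at 7 dpi, a ratio of -0.58. Cd36, a scavenger receptor that assists Tlr2, had 1292 and 1805 FPKM, a ratio of -0.48, and Lbp, which carries lipopolysaccharide in plasma, was the higher one, with 13.5 and 9.52 FPKM and a ratio of 0.46. Cd36 and Lbp, and Irak2, Socs3 and Ccl5 further on, were named after their values were seen. Ly96, the subunit of the Tlr4 complex that binds the lipid, had 3.51 and 3.87 FPKM at 7 dpi, and 0.812 and 2.90 at 21 dpi, where its ratio was -1.11. Ly86, the partner of Cd180, had 38.5 and 66.9 FPKM at 21 dpi, a ratio of -0.78. At 21 dpi 5 of 7 listed genes were lower in ApoE3, beside 58.9% of all genes. Relative to all genes 1 of the 7 was lower, which was Ly96 at -0.68, beside 8.06%.

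Downstream of the receptors, 22 genes of adaptors, kinases and transcription factors were all listed at 7 dpi, with 1 higher and 2 lower in ApoE3. The higher one was Irf7, a transcription factor that drives interferon genes after Tlr7 or Tlr9 signals, with 159 FPKM in ApoE3 against 81.9 in ApoE4, a ratio of 0.95. Irak4, the first kinase recruited by Myd88, had 5.399 and 7.45 FPKM at 7 dpi, a ratio of -0.40, and 2.18 and 4.59 at 21 dpi, a ratio of -0.81. Irak2, a related kinase, had 52.6 and 68.8 FPKM at 7 dpi, a ratio of -0.38 at the threshold. Tab3, a subunit of the kinase complex between Traf6 and NF-kappaB, had 30.1 and 26.6 FPKM at 7 dpi, and 22.8 and 55.7 at 21 dpi, a ratio of -1.25. At 21 dpi, 8 of 16 listed genes of this pathway were lower in ApoE3, beside 58.9% of all genes. Relative to all genes 2 were lower, Tab3 at -0.83 and Irak4 at -0.39, beside 8.06%, and the median of -0.40 became 0.027. Of 11 genes that restrain the pathway, 0 were higher and 3 were lower in ApoE3 at 7 dpi. Sigirr, a receptor that blocks signalling, had 20.1 FPKM in ApoE3 against 31.2 in ApoE4, a ratio of -0.61. Tnfaip3, an enzyme that edits ubiquitin on signalling proteins, had 13.1 and 19.1 FPKM, a ratio of -0.51. Socs3, which restrains cytokine receptors, had 36.8 and 48.2 FPKM, a ratio of -0.38 at the threshold. At 21 dpi Sigirr and Tnfaip3 had ratios of -0.26 and -0.11, both positive relative to all genes, at 0.16 and 0.32. Irak3, an inactive kinase that holds the complex of Myd88 together, had 7.73 and 14.2 FPKM at 21 dpi, a ratio of -0.80, and Atf3, a repressor of cytokine genes, had 10.2 and 15.3 FPKM, a ratio of -0.55. Of 7 brakes listed at 21 dpi, 4 were lower in ApoE3, beside 58.9% of all genes. Relative to all genes 1 was lower, which was Irak3 at -0.38, beside 8.06%.

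Of 14 other inflammasome sensors, 6 were listed at 7 dpi, none past the threshold, and all 6 had a negative ratio. Nlrp1b, a sensor of protease activity, had 13.02 FPKM in ApoE3 against 16.9 in ApoE4, a ratio of -0.35, and Nod1 had 29.2 and 33.1 FPKM, a ratio of -0.17. Aim2, a sensor of cytosolic DNA, had the highest level of the list in every group, with 240 and 261 FPKM at 7 dpi and 176 and 192 at 21 dpi. Its ratio was -0.12 at 7 dpi and -0.13 at 21 dpi, the latter 0.29 relative to all genes. Naip2 and Naip5, which bind bacterial secretion and flagellar proteins, had ratios of -0.65 and -0.66 at 21 dpi, or -0.22 and -0.24 relative to all genes. At that time 2 of 3 listed sensors were lower in ApoE3, beside 58.9% of all genes. Relative to all genes 0 of 3 were lower, beside 8.06%. Naip5 had 8.69 FPKM in ApoE3 against 14.3 in ApoE4 at 21 dpi, and Naip2 had 2.92 and 5.14. The Naip genes are close paralogs, so reads may be split between them and their values are uncertain. All 3 sensors listed at both times fell from 7 to 21 dpi in each genotype, with ratios between -1.83 and -0.45 in ApoE3 and between -1.32 and -0.44 in ApoE4.

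Among 13 partners and effectors of the inflammasome, 11 were listed at 7 dpi, with 0 higher and 2 lower in ApoE3. P2rx7, the ATP-gated channel upstream of Nlrp3, had 67.4 FPKM in ApoE3 against 91.7 in ApoE4 at 7 dpi, a ratio of -0.44, and Ninj1, which ruptures the membrane at the end of pyroptosis, had 49.0 and 66.0 FPKM, a ratio of -0.42. At 21 dpi P2rx7 had a ratio of -0.054, or 0.37 relative to all genes. The channel, the sensor Nlrp3 and the final effector were thus the inflammasome genes past the threshold at 7 dpi, all lower in ApoE3. Gsdmd, whose cleaved form makes the pore, had 62.0 and 62.9 FPKM at 7 dpi, and 23.8 and 41.9 at 21 dpi, a ratio of -0.79. Il1b, the main substrate of Casp1, was low in every group, with 1.86 and 2.15 FPKM at 7 dpi, and 1.08 and 2.61 at 21 dpi, a ratio of -0.79. Il18, the other substrate, had 61.6 and 75.1 FPKM at 7 dpi, a ratio of -0.28, and no row at 21 dpi. The transcript of Il18 was thus far above that of Il1b at 7 dpi in both genotypes. Il1a had 3.70 and 7.77 FPKM at 21 dpi, a ratio of -0.90. At 21 dpi 6 of 9 listed genes were lower in ApoE3, beside 58.9% of all genes. Relative to all genes 1 of the 9 was lower, which was Il1a at -0.48, beside 8.06%.

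Of 8 interleukin-1 and interleukin-18 receptors and their brakes, 4 were listed at each time. Il1rn, the secreted antagonist of the interleukin-1 receptor, had 5.79 FPKM in ApoE3 against 9.03 in ApoE4 at 7 dpi, a ratio of -0.56, and 1.74 and 6.09 at 21 dpi, a ratio of -1.37. Relative to all genes the value at 21 dpi was -0.95. Il1r1, the signalling receptor, had 49.1 and 65.4 FPKM at 7 dpi, a ratio of -0.40, and Il1rap, its accessory chain, had 41.1 and 62.7 FPKM at 21 dpi, a ratio of -0.60. The antagonist of the pathway was thus lower in ApoE3 at both times. In all, 2 of 4 were lower and 0 higher in ApoE3 at each time. Of all genes, 4.76% were lower at 7 dpi and 58.9% at 21 dpi. Relative to all genes at 21 dpi 1 of 4 was lower, beside 8.06%, which was Il1rn, with Il1rap at -0.17.

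Targets of NF-kappaB, which these receptors activate, differed in direction at 7 dpi. Of 14 cytokine and chemokine genes, 8 were listed, with 1 higher and 3 lower in ApoE3. Cxcl10, which interferon also induces, had 34.2 FPKM in ApoE3 against 13.04 in ApoE4, a ratio of 1.33, while Ccl2, which draws monocytes, had 4.78 and 8.23, a ratio of -0.68. The others that were lower were Ccl4 at -0.54 and Ccl3 at -0.40. At 21 dpi 6 of 7 were lower in ApoE3, beside 58.9% of all genes. Relative to all genes 3 of 7 were lower, which were Ccl4, Ccl3 and Ccl5, beside 8.06%. In the same way 1 was higher, which was Ccl2, beside 7.46%. Ccl4 had 8.26 FPKM in ApoE3 against 31.9 in ApoE4 at 21 dpi, a ratio of -1.83 or -1.41 relative to all genes, and Ccl3 had 11.3 and 31.8, a ratio of -1.41, or -0.99 relative to all genes. Ccl3 and Ccl4 are neighbouring chemokine genes expressed by activated microglia and macrophages. Cxcl10 at 21 dpi had 14.8 and 23.9 FPKM, a ratio of -0.66, and Ccl2 had a ratio of 0.064, or 0.49 relative to all genes. Ccl5 had 15.98 and 34.8 FPKM, a ratio of -1.08. The list as a whole had a median of -0.79 at 21 dpi, or -0.37 relative to all genes.

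Nucleic acid sensors of the cytosol and the response to type I interferon were set beside Tlr3, the gene of these 10 that was higher in ApoE3 at 7 dpi. Of 20 interferon response genes, 17 were higher in ApoE3 at 7 dpi and 0 were lower, beside 3.78% and 4.76% of all genes. Their median ratio was 0.80. Oasl1, an antiviral gene, had 19.7 FPKM in ApoE3 against 6.64 in ApoE4, a ratio of 1.44, and Rsad2, which encodes viperin, had 10.3 and 3.50, a ratio of 1.33. Tlr3, at 0.40, lay below the median of that list and Tlr7, at 0.12, further below. Of 8 cytosolic sensors, 7 were listed at 7 dpi, with 3 higher in ApoE3 and 0 lower. Zbp1, a sensor of left-handed nucleic acid helices, had 34.6 FPKM in ApoE3 against 13.2 in ApoE4, a ratio of 1.33. Ifih1, a sensor of long double-stranded RNA, had 23.6 and 16.01 FPKM, a ratio of 0.53, and Ddx58, a sensor of RNA ends, had 13.4 and 9.36, a ratio of 0.47. The other 4 listed sensors lay inside the threshold, 3 of them below 0.
At 21 dpi, 16 of 16 listed interferon response genes were lower in ApoE3, beside 58.9% of all genes. Relative to all genes 5 of them were lower, beside 8.06%. Usp18, which restrains interferon signalling, had 3.58 FPKM in ApoE3 against 9.79 in ApoE4, a ratio of -1.24, and Ifi44 had 5.28 and 12.9, a ratio of -1.14. Of 7 cytosolic sensors listed at 21 dpi, 6 were lower in ApoE3, with Zbp1 at -0.89 and Ddx58 at -0.73, and 1 was lower relative to all genes, which was Zbp1 at -0.47. The Oasl genes are close paralogs, so the value of Oasl1 is uncertain.

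**Figure D4:**
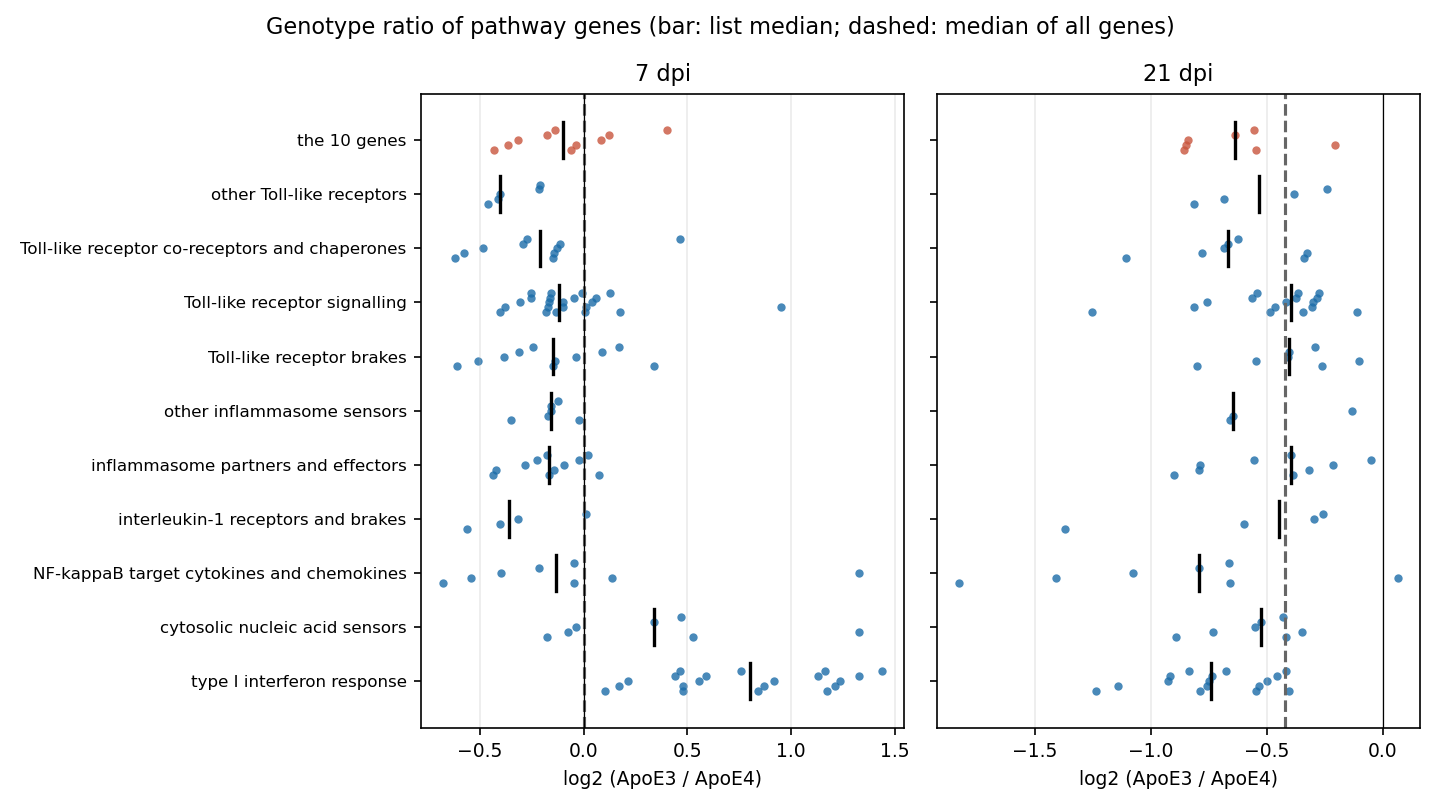
Log2 ratio of ApoE3 to ApoE4 at 7 dpi (left) and 21 dpi (right) for the 10 genes (red) and for the genes of each pathway list (blue), with 1 point per listed gene, a bar at the list's median and a dashed line at the median of all genes. The interferon response list at 7 dpi has its median at 0.80 while that of the 10 genes is -0.10, and at 21 dpi their medians are -0.74 and -0.64, left of the dashed line at -0.42.

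Markers of monocytes and macrophages also fell over time, and they were not the only ones. The median ratio of 21 to 7 dpi of microglia markers was -0.63 in ApoE3 and -0.16 in ApoE4. That of astrocyte markers was -0.60 in ApoE3 and 0.31 in ApoE4. In bulk tissue, fewer cells of a type and less RNA per cell cannot be told apart. Of 14 monocyte and macrophage markers, 12 were listed at 7 dpi, with a summed level of 5929 FPKM in ApoE3 against 7839 in ApoE4. At 21 dpi 8 were listed, with sums of 774 and 1111, which include Fn1, a gene without a row at 7 dpi. Over the 7 markers listed at both times the sums were 5895 and 7796 FPKM at 7 dpi, and 319.8 and 599.8 at 21 dpi. The most abundant was Lyz2 at 7 dpi, with 4522 FPKM in ApoE3 against 6076 in ApoE4, and Fn1 at 21 dpi, with 454 and 511. Cd163 was not listed at either time and Ccr2 and Mrc1 not at 21 dpi. All 7 macrophage markers listed at both times fell, beside 23.6% of all genes in ApoE3 and 10.9% in ApoE4. Their median ratio was -3.88 in ApoE3 and -3.01 in ApoE4. Both medians were lower than the lowest ratio of the receptor and inflammasome genes, that of Tlr7. Single markers reached up to -1.56 in ApoE3 and -1.58 in ApoE4, which is above the ratio of Tlr7. Between genotypes, 6 of 12 were lower in ApoE3 at 7 dpi and 0 higher, beside 4.76% and 3.78% of all genes. At 21 dpi 6 of 8 were lower and 1 higher, beside 58.9% and 2.01%. Relative to all genes these were 3 of 8 and 1 of 8, beside 8.06% and 7.46%.

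Of 9 microglia markers, 6 were listed at 7 dpi, with sums of 570.4 FPKM in ApoE3 against 641 in ApoE4, led by Fcrls. At 21 dpi 6 were listed, with sums of 283 and 509 FPKM, led by Siglech with 123 and 237. The defining markers P2ry12 and Cx3cr1 were not listed at either time. The 5 microglia markers listed at both times had a sum of 518 FPKM in ApoE3 against 591 in ApoE4 at 7 dpi, and of 276 and 498 at 21 dpi. Of these 5, 4 fell in ApoE3 and 2 in ApoE4, with medians of -0.63 and -0.16, while relative to all genes 4 and 3 fell, with medians of -0.72 and -0.69. In ApoE4 1 rose, Siglech, with a ratio of 1.19, or 0.66 relative to all genes. Between genotypes at 21 dpi, 6 of 6 were lower in ApoE3, beside 58.9% of all genes. Relative to all genes 2 of 6 were lower, beside 8.06%. The median was -0.68, or -0.26 relative to all genes, beside -0.64 and -0.22 for the 7 receptor and inflammasome genes. At 7 dpi 1 of 6 was lower and 0 were higher.

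Other cells that can carry these receptors were poorly covered. Of 12 neutrophil markers, 5 were listed at each time, and Ly6g, Camp, Mpo and Elane were not. Their sums were 507 FPKM in ApoE3 against 604 in ApoE4 at 7 dpi, and 293 and 439 at 21 dpi, nearly all of it from Csf3r, whose ratio at 7 dpi was -0.28. Gene by gene, 2 of the 5 were higher and 1 was lower in ApoE3 at 7 dpi, with a median of 0.34. The higher ones were S100a9, with 14.1 and 8.19 FPKM and a ratio of 0.72, and S100a8, with 5.28 and 3.34 FPKM and a ratio of 0.53, both named after their values were seen. At 21 dpi 4 of the 5 were lower and 0 higher, beside 58.9% and 2.01% of all genes. Relative to all genes 2 of the 5 were lower, beside 8.06%. Of 8 dendritic cell markers, 4 were listed at 7 dpi, with sums of 141 and 147 FPKM, and 3 at 21 dpi, with sums of 91.3 and 146, led by Bst2, which also responds to interferon and is in that list too. The plasmacytoid marker Ccr9 and the conventional markers Xcr1 and Clec9a were not listed. Of 10 lymphocyte markers, 1 was listed at 7 dpi and 2 at 21 dpi, with sums of 2.46 and 3.28 FPKM and of 1.66 and 4.33, led by Cd79b. No marker of these 3 lists was at 0 in a group where it was listed.

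The remaining markers describe other cells of the cord and the blood. The median ratio of 21 to 7 dpi in ApoE3 was 0.70 for 8 neuron markers, 0.48 for 5 oligodendrocyte markers, -0.60 for 7 astrocyte markers, 0.13 for 7 endothelial markers and 1.53 for 4 erythrocyte markers. In ApoE4 these medians were 1.64, 0.98, 0.31, 0.49 and 1.83. Relative to all genes the first 4 were 0.61, 0.39, -0.68 and 0.039 in ApoE3, and 1.11, 0.45, -0.22 and -0.035 in ApoE4, so that the astrocyte median was negative in both genotypes. Neuron and oligodendrocyte markers thus had higher medians than the median of all genes in both genotypes. Summed over the markers listed at both times, neuron genes had 5031 FPKM in ApoE3 against 3911 in ApoE4 at 7 dpi, and 8199 and 12064 at 21 dpi. Astrocyte genes had 17481 and 17060 FPKM, and then 10993 and 20093. Endothelial genes, led by Flt1, had 227 and 238 FPKM, and then 270 and 331. Erythrocyte genes, led at 21 dpi by Hba-a1, had 346 and 347 FPKM, and then 1063 and 1335. The part of microglia, macrophages and the other cells in the ratios of the receptor and inflammasome genes was not tested.

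**Figure D5:**
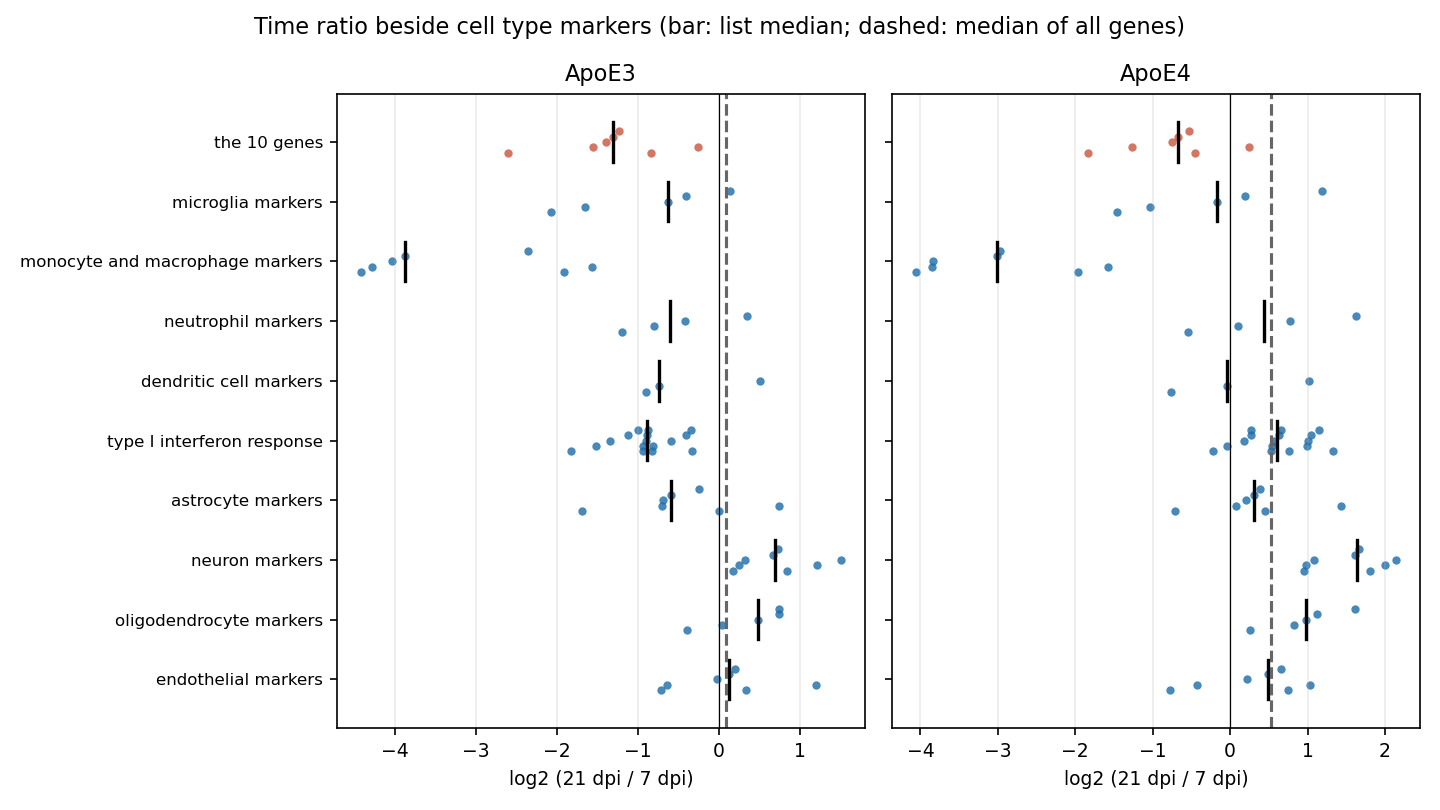
Log2 ratio of 21 dpi to 7 dpi in ApoE3 (left) and ApoE4 (right) for the 7 of the 10 genes with rows at both times (red) and for cell type marker and interferon response lists (blue), with 1 point per gene, a bar at the list's median and a dashed line at the median of all genes. Monocyte and macrophage markers have medians of -3.88 and -3.01, the receptor and inflammasome genes of -1.31 and -0.67, and neuron markers of 0.70 and 1.64.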

How the data were processed

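RNA from lesion segments was measured in 4 groups by RNA-seq with a kit that does not mark strand. The authors used STAR 2.5.4b, Bowtie2, SAMtools 0.1.7 and Cuffdiff 1.3.0, and deposited FPKM plus 1, 1 value per gene and group, so 1 was subtracted here. The genome build is not given in the sources used here. Symbols on 2 rows, 2 at each time, were left out. Log2 ratios used a pseudocount of 1 FPKM and a fold of at least 1.3. With 1 value per group no test was run, and the authors' own comparison columns were not used. The 10 genes and the lists were chosen with earlier results of these data known. Named were the 10 genes, the 2 genes of each pathway list with the largest absolute ratio in each genotype comparison at a mean FPKM of at least 1, and Il1b, Il18, Gsdmd, Cd14, Ly96, Tlr1, Tlr6, Tlr8, Tlr13 and Aim2. From the marker lists, sums, leading genes and missing markers were taken. Some marker genes are not reported here and were left out of their lists. The alternatives were pseudocounts of 0.1 and 0.01 FPKM, a mean FPKM of at least 1, subtraction of the median of all genes, and folds of 1.5 and 2. Ratios and counts were tested on simulated data without noise, with large planted changes and low genes left out. That checks the arithmetic only, and not calls near the threshold or at low levels. Promoters came from RefSeq, overlaps from GENCODE vM21. Python 3.11.15, numpy 2.4.6, pandas 2.3.3 and matplotlib 3.10.9 were used.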

Additional observations from a re-analysis of the deposited data

Results flagged for a closer look

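Some ratios of ApoE3 to ApoE4 pointed one way at 7 dpi and the other way at 21 dpi. Each difference is the log2 ratio at 21 dpi minus that at 7 dpi, and none was tested, since each group has 1 value. Among the receptors, the difference was -0.76 for Tlr7 and -0.29 for Tlr9, and relative to the median of all genes Tlr9 was positive at both times. Of 145 genes of all lists with rows at both times, 25 were past 1.3-fold in opposite directions, 13 of them interferon response genes, and 11 of the 25 stayed so relative to the median of all genes. That is 17.2% of these 145 genes, beside 2.71% of the 10876 genes with rows at both times, and 12 of 129 without the interferon response list. With the median of all genes subtracted, 13 of the 145 were past the threshold in opposite directions, or 8.97%, beside 1.66% of all genes and 6.20% without that list. The lists were chosen with earlier results of these data known, so these shares are a description and no test of the lists. Among the genes named in the text, the difference was -1.99 for Cxcl10, -1.21 for Ddx58, -1.06 for Ifih1, -2.22 for Zbp1, -1.98 for Oasl1, -1.79 for Rsad2, -2.00 for Usp18 and -1.70 for Ifi44. Among named marker genes it was -1.31 for S100a8, -2.04 for S100a9, -0.95 for Snap25 and -5.22 for Tnnt3. Relative to the median of all genes, Zbp1, Usp18, Ifi44, S100a9 and Tnnt3 stayed past the threshold at 21 dpi, at -0.47, -0.81, -0.72, -0.90 and -4.04, and the other named genes did not. S100a8 and S100a9 were named after their values were seen. The ratio of 21 to 7 dpi for Casp4 was negative in ApoE3 and positive in ApoE4, a difference of 0.51 that was not tested. Relative to the median of all genes it was negative in both, at -0.35 and -0.28.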

How the results depend on the processing

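A value counted as moved when it shifted by at least 0.38 on the log2 scale, and a count when it changed by more than 1.5 times. Among the 10 genes, no ratio past the threshold changed sign under any alternative run. A pseudocount cannot change the sign of a ratio, so only subtracting the median could have done so. Pseudocounts of 0.1 and 0.01 FPKM each raised the number of the 10 genes lower in ApoE3 at 7 dpi from 1 to 2, and 0.01 FPKM raised that at 21 dpi from 6 to 7, by Tlr9. Folds of 1.5 and of 2 left 0 higher and 0 lower at 7 dpi. At 21 dpi a fold of 2 left 0 of 6 lower genes, and subtracting the median of all genes left 3 and moved the median of the 7 genes from -0.64 to -0.22. For 21 against 7 dpi in ApoE4, the subtraction moved the median from -0.67 to -1.20, and a fold of 2 left 2 of 6 lower genes. A mean FPKM of at least 1 left out none of the 10 genes, so it could change nothing. Of 93 single gene ratios recomputed under the others, 71 moved by less than 0.38 and 22 by more. Subtracting the median shifts all ratios of a comparison by the same amount. That median was -0.42 at 21 dpi and 0.53 over time in ApoE4, but 0.0018 at 7 dpi and 0.089 over time in ApoE3. Which ratios moved under it was thus fixed by the comparison. The other ratios that moved were those of Casp1 and Tlr9 under the pseudocounts. A longer NF-kappaB consensus, chosen after seeing the data, raised the genes with a promoter match from 2 to 4 of 8. The number of fragments per gene was not analysed here, so no precision is given for low values such as those of Casp1 and Tlr9.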
